A study of Drosophila melanogaster with 12 samples.

Results

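The proximal part (PP) of larval salivary glands (SGs) was compared to whole glands of the same genotype, lglRNAi;RasV12, in which an RNAi construct against l(2)gl and the RasV12 transgene are driven together. The PP is represented by 3 libraries and the whole glands by 3 libraries, out of the 12 libraries of the series, and both groups were chosen by their sample titles and not by any measured value. The comparison covers all genes, of which 13825 were summed from transcripts and 9012 had enough counts to be tested. Both groups carry the driver Bx-Gal4 (w1118,BxGal4) and the reporter Drs-GFP from the mother and UAS-l(2)glRNAi with UAS-RasV12 from the father. Larvae of both groups were at the third instar and were dissected at 96 hr after egg deposition (AED), after culture at 29 °C with 4 antibiotics in the food. The remaining libraries are whole glands of RasV12 larvae (3 libraries) and of w1118 larvae (3 libraries), made with the same Bx-Gal4 driver. The sources differ on whether these larvae carry Drs-GFP, as given below. The sample labels call the dissected piece a posterior part, whereas the study's text calls it proximal, meaning the end that adjoins the salivary duct, and the name PP is used below.

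A larval SG is a tube of large polyploid secretory cells that ends in a duct, with a ring of small diploid cells, the imaginal ring, between them, from which the adult gland later forms. Secretory cells first make pre-glue products and then the Sgs glue proteins, which fix the pupa to its support. RasV12 is a permanently active form of the small GTPase Ras85D, and l(2)gl is a scaffold of the basolateral cell cortex that limits growth of epithelia. Antimicrobial peptides (AMPs) are secreted defence peptides whose genes are mostly controlled by the Toll pathway, through Dif and dl, and by the Imd pathway, through Rel.

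The data have limits that bear on every result. Whole glands contain their own PP, and the distal part alone, the PP of w1118 glands and the PP of RasV12 glands were not analysed here, so that a gene lower in the PP is a gene whose share of mRNA is higher elsewhere in the dissected whole gland. In bulk RNA, fewer cells of a type and less RNA per cell cannot be told apart. More pairs were pooled for a PP replicate than for a whole gland replicate. Estimated counts summed to between 29532039 and 73043536 in the PP (median 31530137) and between 30516609 and 48540724 in whole glands (median 33750904), with PP replicate 2 the deepest. Log expression correlated across genes between 0.984 and 0.987 among the PP libraries and between 0.979 and 0.993 among the whole gland libraries. The names of the deposited libraries end in a number whose meaning the sources used here do not give. It is the same in the 3 whole gland libraries and different from it in all PP libraries, so that tissue and whatever it stands for cannot be told apart within these groups, and a fit with this number as a factor is given below.

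Levels are given below as CPM, counts scaled to 1000000 per library with TMM normalization, which do not correct for gene length and are compared only between libraries, in the order of replicates 1 to 3. As a check of the genotype, Ras85D, whose count includes reads of the transgene, had 2867, 2411 and 2733 CPM in the PP, against 2042, 2426 and 2524 CPM in whole glands. The groups overlapped, at a log2 fold change of 0.20 (SE, the standard error, 0.14, adjusted p 0.274, quasi-likelihood test of edgeR, p adjusted after Benjamini and Hochberg, as for all adjusted p below), and w1118 glands averaged 63.9 ± 10.5 CPM (SD, n = 3). The target of the RNAi, l(2)gl, had 208, 282 and 242 CPM in the PP, against 191, 148 and 162 CPM in whole glands. Every PP library was above every whole gland library, and the log2 fold change of 0.54 (adjusted p 0.0118) did not reach the limit on the fold change. The count of l(2)gl can include reads of an RNAi hairpin if it matches the transcript, which was not tested.

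A gene was called when its log2 fold change was at least 1 in size at an adjusted p of at most 0.05. By this rule 740 genes were higher in the PP, which is 8.21% of the genes tested, and 562 were lower (6.24%). Without the limit on the fold, 1804 genes (20.0%) passed in the direction of the PP and 1599 (17.7%) in that of whole glands, the libraries of the groups did not overlap for 4648 genes (51.6%), and the median log2 fold change of all genes was 0.00. The larger differences were more often toward the PP. Here, 219 genes were higher and 142 lower by at least 2 on the log2 scale, 86 and 30 by at least 3, and 20 and 4 by at least 5. Among genes with a mean of at least 5 CPM in the higher group, 436 were higher and 279 lower. Of the genes higher, 48.5% have only a CG number as their symbol, against 38.4% of the genes lower and 34.2% of all genes tested. The split of the calls depended on the scale, since fits on log2(TPM + 1) called 297 genes higher and 365 lower and fits on log2(TPM + 0.1) called 511 and 639. With the library number as a factor 80 genes were higher and 18 lower. The difference then rests on PP replicate 1 and on RasV12 glands. In that fit 725 of the 740 genes kept their direction and 529 were still over the fold limit, as were 560 and 464 of the 562 genes that were lower.

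**Figure D1:**
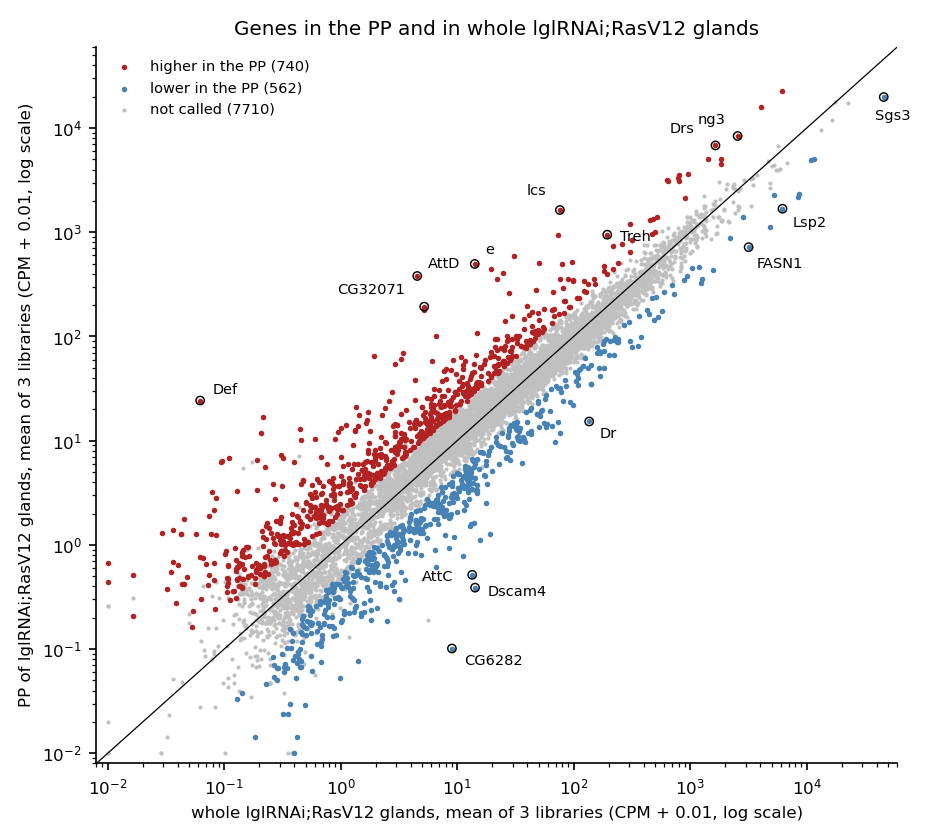
Mean normalized count of each of the 9012 tested genes in the PP (vertical axis) and in whole lglRNAi;RasV12 glands (horizontal axis), in CPM with 0.01 added on logarithmic axes. Red points are the 740 genes higher in the PP, blue points the 562 genes lower in the PP and grey points the genes not called. Def and AttD lie farthest above the diagonal among the marked genes, and CG6282 and Dscam4 far below it.

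The AMP genes contained the gene with the largest increase in the PP, Def, and several that fell. Of 21 AMP genes, 15 could be tested. Of these, 7 rose (46.7%, against 8.21% of all genes), 5 fell (33.3%, against 6.24%) and 3 did not pass. The median log2 fold change was 1.55 against 0.00 over all genes. The AMP genes that rose were Def, AttD, the 4 Cecropin genes and Drs, and those that fell were AttA, AttB, AttC, Dro and edin. Def, which encodes the insect defensin directed against Gram-positive bacteria, had 15.03, 48.04 and 9.76 CPM in the PP, against 0.0975, 0.0279 and 0.0311 CPM in whole glands. Its read counts in whole glands were 5, 1 and 1 per library, so that the log2 fold change of 8.63 (adjusted p 1.44e-05) rests on few reads on the lower side. It was between 7.67 and 9.54 when single libraries were left out. The groups did not overlap for Def, and PP replicate 2 was the highest of all libraries.

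AttD encodes an attacin without the signal peptide of its paralogs and had 200.5, 761 and 181 CPM in the PP, against 4.90, 8.02 and 0.685 CPM in whole glands. All PP libraries lay far above all whole gland libraries (log2 fold change 6.38, SE 0.82, adjusted p 0.000168). The Cecropins are amphipathic peptides that lyse Gram-negative bacteria, and their 4 genes lie between positions 30210874 and 30216938 of chromosome arm 3R (dm6). CecC, per length the most abundant of them, had 242, 635 and 352 CPM in the PP, against 37.8, 18.7 and 17.99 CPM in whole glands (log2 fold change 4.04, adjusted p 3.15e-05). CecA1 had 29.5, 131 and 32.7 CPM in the PP, against 3.96, 1.06 and 0.778 CPM in whole glands, also without overlap (log2 fold change 4.99, adjusted p 0.00145). CecB and CecA2 were lower in abundance and rose by 3.16 and 2.77 on the log2 scale (adjusted p 0.00874 and 0.0454). Both calls depended on PP replicate 2, without which the log2 fold changes were 1.98 and 1.51 with adjusted p of 0.0573 and 0.292. CecA2 also lost its call without whole gland replicate 2 or 3. CecA1 and CecA2 are near copies, so that the division of reads between them is uncertain.

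Drs encodes Drosomycin, an antifungal peptide of the Toll pathway, and was the most abundant AMP mRNA in both groups. It had 6695, 7573 and 6183 CPM in the PP, against 1496, 1779 and 1676 CPM in whole glands. The PP libraries did not overlap with the whole gland libraries (log2 fold change 2.05, SE 0.46, adjusted p 0.00521). In TPM, which are scaled to the same total after division by transcript length, Drs reached 38067 ± 820 TPM in the PP (SD, n = 3) and was the 4th most abundant mRNA there. Whole RasV12 glands averaged 1532 ± 237 CPM and w1118 glands 6.25 ± 5.87 CPM (SD, n = 3 each). The sample labels place Drs-GFP in all 4 groups. For the panels with the sequencing data, the study's list of crosses gives it for lglRNAi;RasV12 but not for RasV12 or w1118. It may thus be absent from the RasV12 and w1118 libraries. Whether the Drs-GFP reporter adds reads to Drs was not tested.

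Of the AMP genes that fell, AttA, AttB, Dro and edin rested on a single whole gland library. AttA had 0.629, 2.19 and 0.699 CPM in the PP, against 24.9, 1.09 and 2.08 CPM in whole glands, and whole gland replicate 1 alone stood above the rest. AttB, its near copy on chromosome arm 2R, showed the same order with 1.74, 2.65 and 0.503 CPM in the PP, against 36.9, 1.26 and 3.83 CPM in whole glands. Without whole gland replicate 1 their log2 fold changes were -0.39 and -0.61 (adjusted p 0.713 and 0.55), against -2.94 and -3.07 with all libraries. Dro and edin lost their calls in the same way, both with a log2 fold change of -1.34 without this library. The calls of these 4 genes were also lost without 1 or more of the PP libraries. AttC fell by 4.79 on the log2 scale (adjusted p 0.0049), with 0.629, 0.358 and 0.531 CPM in the PP, against 33.8, 3.52 and 3.02 CPM in whole glands, and it kept its call without replicate 1 at a log2 fold change of -2.73 (adjusted p 0.0158). DptA, DptB and Mtk did not pass, with log2 fold changes of 1.35, 1.55 and -1.16. Fat body, the tissue that makes most AMPs during systemic infection, is examined below with its own markers.

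**Figure D2:**
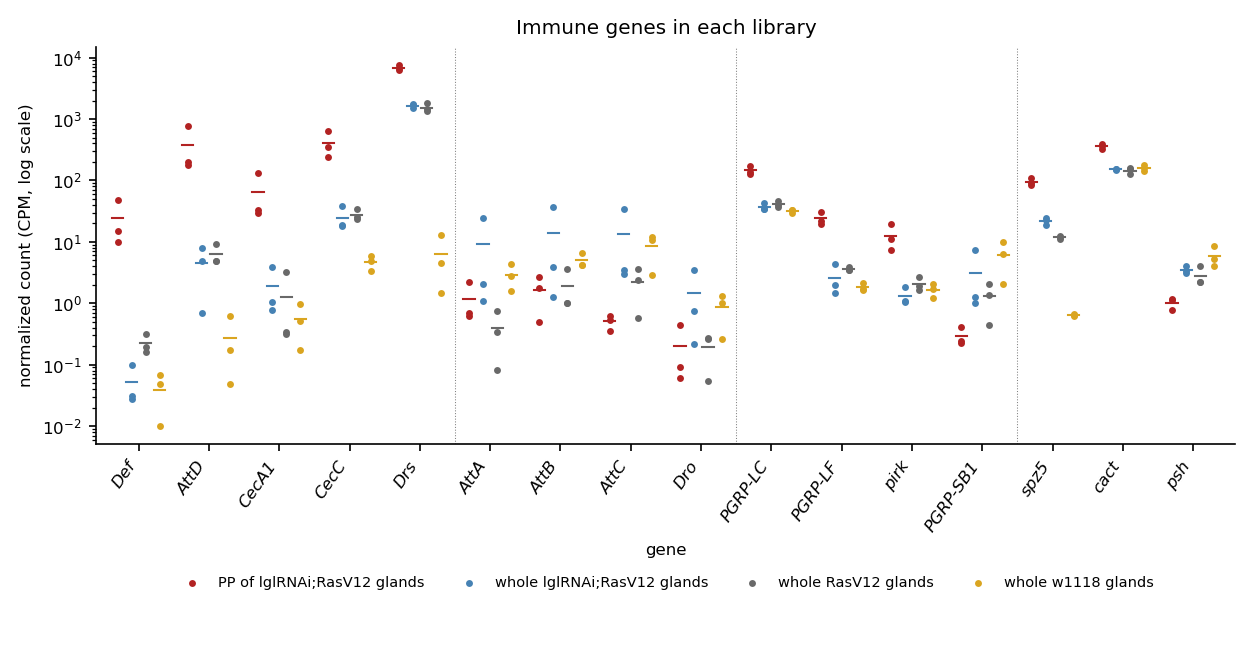
Normalized counts (CPM, logarithmic axis) of 16 immune genes in each library, with the PP in red, whole lglRNAi;RasV12 glands in blue, whole RasV12 glands in grey and whole w1118 glands in yellow. Points are libraries, bars are means of 3, and values under 0.01 are drawn at 0.01. AttD and the Cecropins are high in all 3 PP libraries, while AttA and AttB are high in 1 whole gland library.

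Membrane receptors of the Imd pathway and its inhibitor pirk rose in the PP. Of 25 tested genes of the Imd pathway and the PGRP family, 4 rose (16.0%, against 8.21% of all genes) and 3 fell (12.0%, against 6.24%). The other 18 did not pass, and the median log2 fold change was 0.04. PGRP-LC, the transmembrane receptor for the peptidoglycan of Gram-negative bacteria, had 129, 171 and 138 CPM in the PP, against 43.1, 33.7 and 34.9 CPM in whole glands, with no overlap (log2 fold change 1.97, SE 0.14, adjusted p 2.56e-06). Its neighbours PGRP-LF, an inhibitor that dimerizes with PGRP-LC, and PGRP-LA rose by 3.20 and 1.08 on the log2 scale. The 3 genes lie side by side between positions 9334332 and 9351489 of arm 3L. PGRP-LA was just under the fold limit without PP replicate 2 (0.95). The gene pirk, a target of the pathway that removes PGRP-LC from the membrane, had 7.25, 19.2 and 11.2 CPM in the PP, against 1.83, 1.03 and 1.09 CPM in whole glands (log2 fold change 3.24, adjusted p 8.92e-05).

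Rel, the NF-kB factor of the Imd pathway, had 223, 362 and 218 CPM in the PP, against 223, 143 and 156 CPM in whole glands. The groups overlapped, and the log2 fold change of 0.62 had an adjusted p of 0.0541. PGRP-SB1, a peptidoglycan amidase, was lower by a log2 fold change of -3.38, which became -1.88 (adjusted p 0.0666) without whole gland replicate 1.

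In the Toll pathway, 3 of 23 tested genes rose (13.0%, against 8.21% of all genes) and 4 fell (17.4%, against 6.24%). spz5, a neurotrophin-like ligand of Toll family receptors, had 85.5, 90.2 and 109 CPM in the PP, against 18.8, 24.3 and 22.6 CPM in whole glands. This was one of the best separated differences among the immune genes (log2 fold change 2.12, SE 0.12, adjusted p 9.66e-07), and RasV12 glands averaged 11.8 ± 0.701 CPM and w1118 glands 0.642 ± 0.0311 CPM (SD, n = 3 each). cact, the IkB-like inhibitor that holds Dif and dl in the cytoplasm, had 363, 330.4 and 385 CPM in the PP, against 154, 153 and 145 CPM in whole glands (log2 fold change 1.25, adjusted p 1.40e-05). 18w, a Toll family receptor, rose by 1.51 (adjusted p 0.00369).

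Of the extracellular proteases upstream of Toll in this list, psh, SPE and spirit fell, while grass and modSP were not called (log2 fold changes -0.65 and 0.10). psh, which senses microbial proteases, had 1.11, 1.15 and 0.783 CPM in the PP, against 4.10, 3.32 and 3.14 CPM in whole glands (log2 fold change -1.79, adjusted p 0.00161). SPE, which cleaves the ligand spz, fell by 1.37, spirit by 1.30 and the serpin nec by 1.32 on the log2 scale, and nec was not called without whole gland replicate 1 (-0.98). The NF-kB factors themselves were not higher in the PP. dl had 116, 114 and 105 CPM in the PP, against 186, 131 and 148 CPM in whole glands, all PP libraries being below all whole gland libraries, with a log2 fold change of -0.47 (adjusted p 0.0492). Dif had a log2 fold change of -0.70 (adjusted p 0.01). Neither reached the fold limit.

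Few genes of stress signalling were called. Of 24 tested genes of the JNK pathway and its targets, Traf4 and wgn rose (8.33%) and none fell, where 8.21% of all genes rose. Traf4, an adaptor of the JNK pathway, had 12.4, 19.8 and 14.9 CPM in the PP, against 4.95, 4.50 and 3.83 CPM in whole glands (log2 fold change 1.82, adjusted p 0.000189). The TNF receptor gene wgn rose by 1.08 and fell under the fold limit without whole gland replicate 1 (0.87) or PP replicate 3 (0.95). puc, the phosphatase that JNK signalling induces against itself, had 115, 141 and 115 CPM in the PP, against 303, 214 and 219.6 CPM in whole glands. It was lower in every PP library, and its log2 fold change of -0.99 (adjusted p 0.00224) lay just short of the fold limit. The matrix metalloprotease Mmp1 had 522, 1141 and 585 CPM in the PP, against 759, 327 and 442 CPM in whole glands, and the groups overlapped (log2 fold change 0.56, adjusted p 0.278). The cytokine gene upd3 had a log2 fold change of 0.15 (adjusted p 0.737). Mmp2, the other matrix metalloprotease, had 1.89, 4.81 and 12.2 CPM in the PP, against 3.96, 0.866 and 0.685 CPM in whole glands, with overlap (log2 fold change 1.74, adjusted p 0.0885), and zfh1 had a log2 fold change of -1.10 (adjusted p 0.0623). Of 14 tested apoptosis genes only hid fell, by 1.31 on the log2 scale (adjusted p 0.0258), and its call was lost without whole gland replicate 1, PP replicate 1 or PP replicate 3.

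The secretory program split into pre-glue genes, which were higher in the PP, and glue genes, which were lower. Of 12 tested glue and pre-glue genes, 4 rose (33.3%, against 8.21% of all genes), 4 fell (33.3%, against 6.24%) and 4 did not pass. The 4 genes that rose were ng1 to ng4, which lie between positions 3240026 and 3244220 of chromosome X and encode small pre-glue proteins. ng3, per length the most abundant of them, had 8441, 8890.4 and 7847 CPM in the PP, against 2394, 2688 and 2594 CPM in whole glands. ng1 had 3053, 3483 and 2859 CPM in the PP, against 559, 698 and 673 CPM in whole glands, and neither gene overlapped between the groups (log2 fold changes 1.71 and 2.28, adjusted p 1.94e-05 and 6.68e-06). ng2 rose by 1.92, and ng4, at under 3 CPM in all libraries, by 1.99. ng1 and ng2 are similar in sequence, so that reads may be split between them.

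Among the genes that encode the glue proteins, Sgs3, Sgs4, Sgs7 and Sgs8 fell by 1.14 to 1.21 on the log2 scale. Sgs3, a mucin-like component, had 14046, 22308 and 23235 CPM in the PP, against 42140.0, 45969.7 and 49614 CPM in whole glands (log2 fold change -1.21, SE 0.24, adjusted p 0.00276). Sgs7, its neighbour on arm 3L, had 6352, 4937 and 3770.3 CPM in the PP, against 10812, 11813 and 12165 CPM in whole glands (log2 fold change -1.21, adjusted p 0.00153), and both genes were lower in every PP library. The other tested glue genes were nearer to the whole gland, with log2 fold changes of -0.56 for Sgs1, -0.48 for Sgs5, -0.76 for Sgs5bis and -0.03 for Eig71Ee. Glue genes were most abundant in w1118 glands, where Sgs3 averaged 146246 ± 40648 CPM (SD, n = 3).

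CrebA, the bZIP factor that raises expression of the secretory machinery, had 367, 266 and 422 CPM in the PP, against 802, 934 and 919.6 CPM in whole glands. The groups did not overlap (log2 fold change -1.33, SE 0.16, adjusted p 9.25e-05). sage, a bHLH factor of salivary gland secretory genes, was lower by 0.79 (adjusted p 0.00124), short of the fold limit, and fkh, which specifies the gland and keeps its cells alive, had 329, 355 and 315 CPM in the PP, against 339.8, 347 and 347 CPM in whole glands, with overlap and a log2 fold change of -0.05 (adjusted p 0.78). Of 28 tested genes for endoplasmic reticulum chaperones and the unfolded protein response only P58IPK rose, and none of 21 tested genes of the COPI and COPII coats was called. Of 15 genes of mucin O-glycosylation and sulfation, 4 rose (26.7%, against 8.21% of all genes) and none fell. Of these, GlcAT-P, a glucuronyltransferase, had 143, 167 and 175 CPM in the PP, against 39.4, 35.4 and 48.5 CPM in whole glands (log2 fold change 1.98, adjusted p 1.85e-05). The sulfotransferase pip and Papss, which makes its sulfate donor, rose by 1.05 and 1.02, near the limit.

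**Figure D3:**
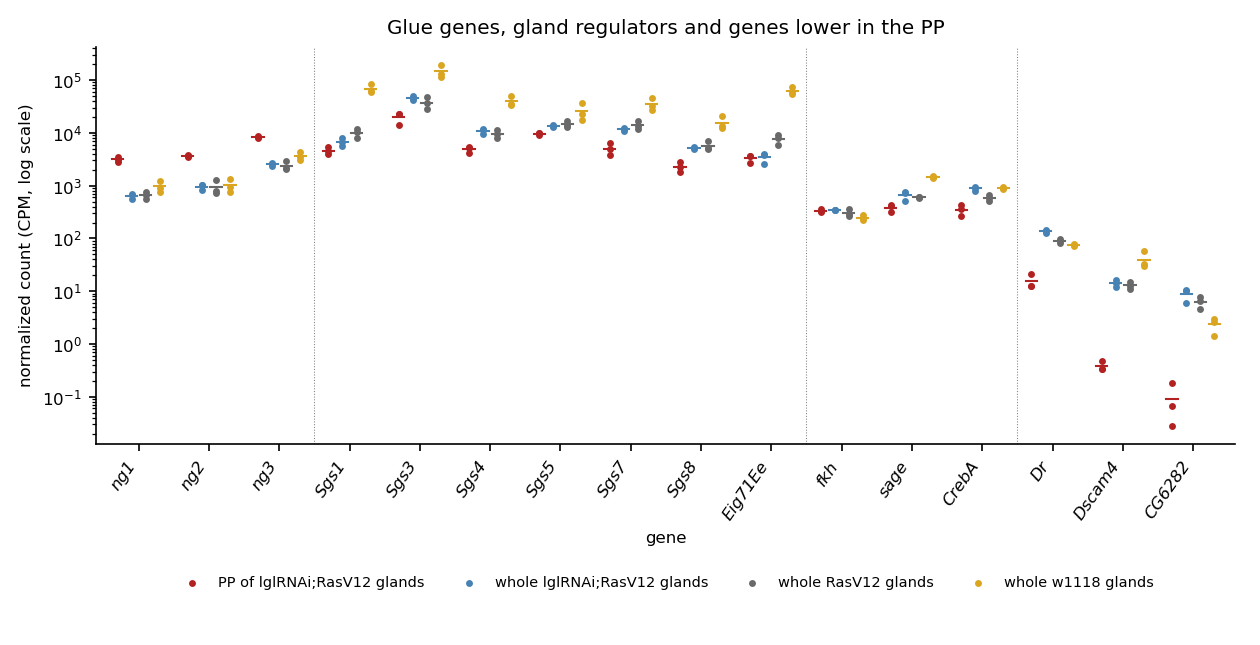
Normalized counts (CPM, logarithmic axis) of pre-glue and glue genes, of the regulators fkh, sage and CrebA, and of Dr, Dscam4 and CG6282 in each library, with the PP in red, whole lglRNAi;RasV12 glands in blue, whole RasV12 glands in grey and whole w1118 glands in yellow. Points are libraries and bars are means of 3. The ng genes are higher in the PP, while Sgs3, Sgs4, Sgs7, Sgs8, CrebA, Dr, Dscam4 and CG6282 are lower.

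The mRNAs with the highest TPM in the PP included genes that rose, led by CG12310 and CG13947, beside Sgs7, Sgs5, Sgs3 and Sgs8, which did not rise. CG12310 reached 66115 ± 3034 TPM in the PP and 20135 ± 1671 TPM in whole glands (SD, n = 3 each). In normalized counts it had 23582, 24703 and 19634 CPM in the PP, against 5485, 6286 and 6841 CPM in whole glands (log2 fold change 1.87, adjusted p 2.47e-05). CG13947, the 2nd by TPM, had 11708, 21321 and 14823 CPM in the PP, against 3665, 4223 and 4279 CPM in whole glands, again without overlap (log2 fold change 1.98, adjusted p 0.000469). In whole glands the first 4 places by TPM were held by Sgs7, Sgs3, Sgs8 and Sgs5. Genes that rose lay close together in several places. CG12310, CG13461 and CG13460 lie between positions 15050263 and 15061705 of arm 3L and rose by 1.87, 3.94 and 2.34 on the log2 scale. CG13946 and CG13947, between positions 776536 and 779655 of arm 2L, rose by 3.69 and 1.98.

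Some genes that marked the PP were abundant in w1118 glands and low in the whole glands with RasV12. CG32071 had 178, 199 and 203 CPM in the PP, against 4.35, 5.03 and 6.22 CPM in whole glands (log2 fold change 5.22, adjusted p 0.000189), while RasV12 glands averaged 3.63 ± 4.34 CPM and w1118 glands 401 ± 208 CPM. CG13460 had 2653, 3906 and 3069 CPM in the PP, against 626, 618 and 653 CPM in whole glands, with 519 ± 63.9 CPM in RasV12 glands and 3178 ± 370.2 CPM in w1118 glands. The mucin gene Muc68Ca had 5124, 4279 and 5636 CPM in the PP, against 1859, 1910.5 and 1736 CPM in whole glands (log2 fold change 1.45, adjusted p 7.92e-05), with 1481 ± 257 CPM in RasV12 glands and 8325 ± 1713 CPM in w1118 glands. For these 3 genes the mean of the PP lay nearer to that of w1118 glands than the mean of either group of whole glands with RasV12 did. They are grouped here by these same values, so that this follows from the choice, and genes with this pattern were not counted. The position along the gland and the genotype also change together in this comparison. Swim, which encodes a secreted protein, was low in w1118 glands too. It had 249.8, 681 and 392 CPM in the PP, against 30.4, 15.7 and 12.4 CPM in whole glands, and w1118 glands averaged 4.64 ± 0.414 CPM. The lysozyme gene LysP had 193, 439 and 447 CPM in the PP, against 23.95, 16.4 and 26.01 CPM in whole glands, with 1.07 ± 0.422 CPM in RasV12 glands.

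Several regulators of the duct and the imaginal ring rose in the PP. Of 16 tested genes of this list, retn, Ser, trh, wg and dally rose (31.3%, against 8.21% of all genes). Only sv fell, and the median log2 fold change was 0.82. trh, the bHLH-PAS factor that specifies salivary duct and trachea, had 5.72, 7.52 and 6.71 CPM in the PP, against 3.28, 2.54 and 2.77 CPM in whole glands. No library overlapped (log2 fold change 1.21, SE 0.21, adjusted p 0.00123). retn, an ARID domain factor, had 5.81, 7.21 and 8.02 CPM in the PP, against 2.59, 1.87 and 2.18 CPM in whole glands (log2 fold change 1.66, adjusted p 8.54e-05). Ser, a Notch ligand of the imaginal ring, had 6.47, 10.04 and 9.62 CPM in the PP, against 3.59, 2.35 and 3.08 CPM in whole glands (log2 fold change 1.53, adjusted p 0.000483). Whole w1118 glands averaged 8.77 ± 2.34 CPM for Ser and 5.80 ± 1.74 CPM for trh (SD, n = 3 each). The LIM homeobox gene Awh, needed for the imaginal ring of the gland, had 8.36, 12.4 and 12.6 CPM in the PP, against 2.79, 3.07 and 2.93 CPM in whole glands (log2 fold change 1.92, adjusted p 5.95e-05).

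Morphogen genes were called in both directions. Among 22 tested morphogens and their targets, Wnt6, tkv, wg, dpp and dally rose (22.7%, against 8.21% of all genes). The genes bnl, brk and fz3 fell (13.6%, against 6.24%). Wnt6, a Wnt ligand next to wg, had 1.95, 4.60 and 2.74 CPM in the PP, against 0.800, 0.391 and 0.405 CPM in whole glands (log2 fold change 2.52, adjusted p 0.00255). The BMP ligand dpp had 8.95, 13.8 and 8.83 CPM in the PP, against 4.88, 5.17 and 5.07 CPM in whole glands (log2 fold change 1.07, adjusted p 0.00295) and was under the fold limit without PP replicate 2 (0.83). tkv, a receptor of dpp, rose by 1.12 (adjusted p 7.92e-05). brk encodes a repressor of dpp target genes that dpp signalling itself represses, and it had 109, 77.01 and 84.4 CPM in the PP, against 308, 309 and 306 CPM in whole glands. The 3 whole gland libraries were nearly identical and all PP libraries were under them (log2 fold change -1.77, SE 0.17, adjusted p 2.02e-05). wg, at under 3 CPM in all groups, rose by 1.11 and was under the limit without PP replicate 3 (0.94). bnl, the FGF ligand of tracheal growth, fell to 11, 4 and 9 reads in the PP, against 64, 60 and 50 reads in whole glands. Neither brk nor bnl was called when the PP was set against whole RasV12 glands, as given below.

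Where 8.21% of all tested genes rose and 6.24% fell, 4 of 16 tested Notch pathway genes rose (25%) and none fell, at a median log2 fold change of 0.01. Of these, E(spl)mbeta-HLH, a Notch target, rose by 1.70 (adjusted p 0.0151) and the receptor gene N by 1.06 (adjusted p 0.0415). Both calls were lost in some of the fits that left out 1 library, with log2 fold changes down to 1.37 and 0.82 and adjusted p over 0.05. The calls of the Egfr and JAK-STAT pathways were few. pnt, the ETS factor downstream of Ras, had 13.03, 17.4 and 12.7 CPM in the PP, against 6.83, 4.89 and 4.82 CPM in whole glands (log2 fold change 1.38, adjusted p 0.000217), and Socs36E, an inhibitor and target of JAK-STAT signalling, rose by 1.05 (adjusted p 0.0275) and was not called without PP replicate 2 (0.67), nor without whole gland replicate 2 or 3.

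Chitin and apical matrix line ducts and tracheae. In the list of chitin and apical matrix genes, 11 of 27 tested members rose in the PP (40.7%, against 8.21% of all genes). A further 2 fell (7.41%, against 6.24%), and the median log2 fold change was 0.79. Gasp, a chitin-binding protein of tracheal lumen and cuticle, had 20.3, 22.8 and 33.4 CPM in the PP, against 5.89, 4.66 and 5.79 CPM in whole glands (log2 fold change 2.22, SE 0.18, adjusted p 9.00e-06). The chitin deacetylases serp and verm rose by 1.33 and 1.28, and obst-E, a chitin-binding cuticle organizer, by 2.16 (adjusted p 0.000757, 0.00404 and 0.00242). The 2 that fell were Idgf6 and Idgf5, growth factors related to chitinases, whereas Idgf1 of the same family rose by 2.12. The members that rose also include trn and mwh (1.94 and 1.92), which do not encode chitin or matrix proteins. Tracheal markers moved with this group. Of 7 tested markers of trachea, Gasp, serp, verm and trh rose, none fell, and their summed level was between 50.6 and 72.5 CPM in the PP and between 24.4 and 29.8 CPM in whole glands. The 4 are members of the chitin or the duct list as well, and the part of tracheal tissue in these results was not tested.

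Of 118 cuticle protein genes, 20 could be tested, 9 of these rose (45%, against 8.21% of all genes) and 1 fell (5%, against 6.24%). Genes with few reads in whole glands can be tested because of their counts in the PP, which bears on this share. The summed level of the 118 genes was not higher in the PP. It lay between 76.6 and 107 CPM in the PP and between 88.6 and 140 CPM in whole glands. Lcp4 had 16.4, 0.702 and 2.04 CPM in the PP, against 0.117, 0.112 and 0.0311 CPM in whole glands, so that PP replicate 1 stood above the other PP libraries. Lcp1 had 8.45, 0.517 and 2.52 CPM in the PP, against 0.312, 0.251 and 0.187 CPM in whole glands. Their log2 fold changes were 6.07 and 3.88 with all libraries and 3.87 and 2.55 without PP replicate 1 (adjusted p 0.0345 and 0.0297). Lcp2 and Lcp65Ab1 lost their calls without this library. The same library carried the digestive proteases of the Jonah family. Jon65Aiv had 49.98, 0.556 and 0.531 CPM in the PP, against 0.410, 0.0559 and 0.156 CPM in whole glands, and without PP replicate 1 its log2 fold change was 1.34 (adjusted p 0.47) in place of 6.21. Of 14 gut markers only 3 could be tested, and their summed level in the PP was between 2.29 and 61.9 CPM and between 2.99 and 3.65 CPM in whole glands.

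**Figure D4:**
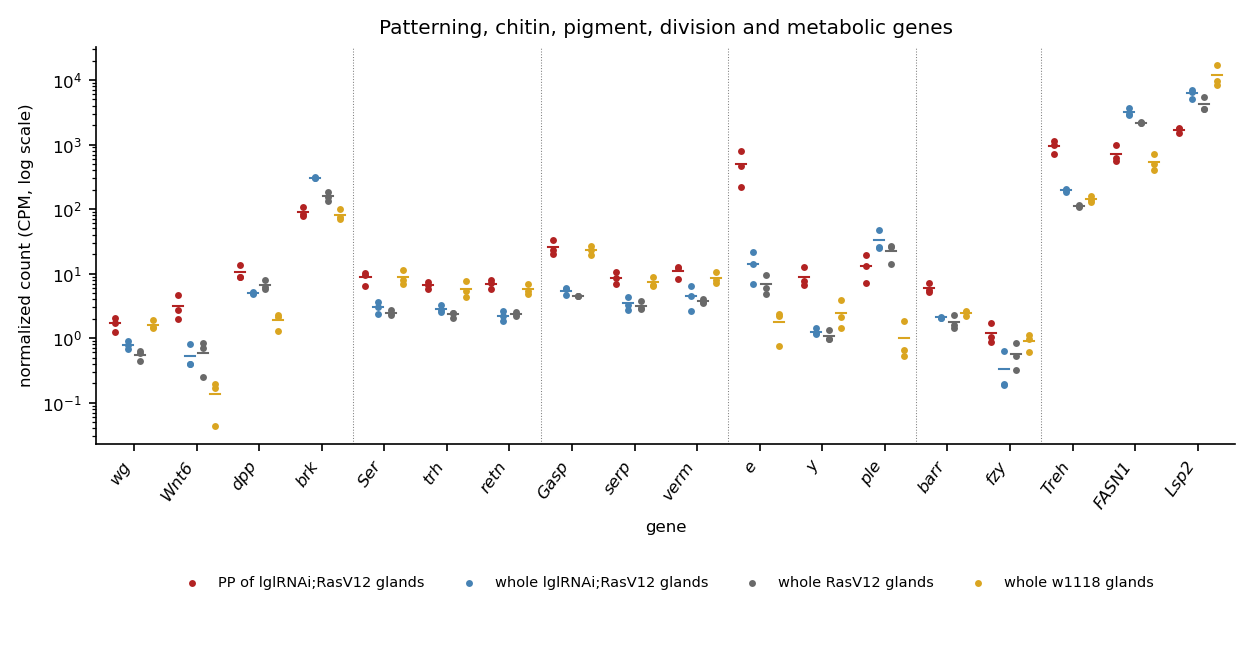
Normalized counts (CPM, logarithmic axis) of patterning genes (wg to brk), duct and imaginal ring genes (Ser to retn), chitin genes (Gasp to verm), pigment genes (e to ple), mitotic genes (barr and fzy) and metabolic genes (Treh to Lsp2) in each library, with the PP in red, whole lglRNAi;RasV12 glands in blue, whole RasV12 glands in grey and whole w1118 glands in yellow. Points are libraries and bars are means of 3. e and Treh are higher and brk, FASN1 and Lsp2 lower in all 3 PP libraries than in the 3 whole lglRNAi;RasV12 gland libraries.

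Genes of catecholamine and pigment metabolism were divided, with 4 of 13 tested genes higher (30.8%, against 8.21% of all genes) and 4 lower (30.8%, against 6.24%). e encodes ebony, which joins beta-alanine to dopamine, and had 223, 804 and 462 CPM in the PP, against 21.5, 6.90 and 14.1 CPM in whole glands. It was among the genes with the largest increase (log2 fold change 5.13, SE 0.56, adjusted p 5.95e-05), with every PP library at least 10 times above every whole gland library. RasV12 glands averaged 6.83 ± 2.40 CPM and w1118 glands 1.79 ± 0.891 CPM. y, needed for black melanin, had 12.9, 7.55 and 6.54 CPM in the PP, against 1.44, 1.20 and 1.15 CPM in whole glands (log2 fold change 2.82, adjusted p 0.000166). ple, the tyrosine hydroxylase that starts the pathway, went the other way with 7.10, 19.1 and 12.9 CPM in the PP, against 47.5, 25.3 and 25.5 CPM in whole glands (log2 fold change -1.32, adjusted p 0.0254), and its call was lost without whole gland replicate 1 (-0.95), PP replicate 1 or PP replicate 3. The lower genes also included t, which hydrolyses the product of ebony, with a log2 fold change of -1.16 (adjusted p 0.0166). Its call was lost without whole gland replicate 2 or PP replicate 3.

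Ecdysone response genes were not uniform, with 5 of 27 tested genes higher (18.5%, against 8.21% of all genes) and 2 lower (7.41%, against 6.24%). Eip78C, a nuclear receptor of the early ecdysone response, had 4.73, 19.7 and 6.49 CPM in the PP, against 0.839, 0.531 and 0.405 CPM in whole glands (log2 fold change 4.10, adjusted p 0.000199). ImpL2, an inhibitor of insulin-like peptides, had 38.7, 108 and 52.5 CPM in the PP, against 16.9, 13.6 and 12.9 CPM in whole glands (log2 fold change 2.20, adjusted p 0.00136). PP replicate 2 was the highest library for both genes. The ecdysone receptor gene EcR and the early gene br had log2 fold changes of -0.56 and -0.54 (adjusted p 0.0226 and 0.0153) and were not called. shd, the enzyme that activates ecdysone, had 9.67, 8.99 and 7.74 CPM in the PP, against 25.6, 21.6 and 22.6 CPM in whole glands (log2 fold change -1.40, adjusted p 0.000241).

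Mitotic genes were expressed at a low level in both groups. Of 28 tested genes, barr, fzy, thr and feo rose (14.3%, against 8.21% of all genes), none fell, and the median log2 fold change was 0.82. barr, a condensin subunit, had 5.48, 5.23 and 7.27 CPM in the PP, against 2.13, 2.07 and 2.08 CPM in whole glands, without overlap (log2 fold change 1.51, SE 0.21, adjusted p 0.000244). fzy, an activator of the anaphase-promoting complex, had 1.05, 0.874 and 1.73 CPM in the PP, against 0.624, 0.196 and 0.187 CPM in whole glands, and it was not called without PP replicate 3 or without whole gland replicate 2 or 3. The calls of thr and feo were lost in 6 and 4 of the 6 fits that left out 1 library. CycA, a mitotic cyclin, had 4.46, 4.52 and 6.88 CPM in the PP, against 3.28, 2.63 and 2.80 CPM in whole glands, with a log2 fold change of 0.86 (adjusted p 0.0215). Of 37 genes of the endocycle and DNA replication only Psf1 was called, and it fell. Ribosome biogenesis genes had a median log2 fold change of 0.72 over 31 tested members, with Polr1H, nop5 and wcd higher and none lower. The 84 tested cytosolic ribosomal protein genes had a median of 0.24 and the 68 tested genes of oxidative phosphorylation a median of 0.36. Without the fold limit, 25, 33 and 42 members of these lists passed as higher, where 20.0% of all genes did, and none passed as lower.

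Of the aquaporins and entomoglyceroporins, channels for water and glycerol that were looked at after their values were seen, Eglp2, Drip, Prip and Eglp1 rose, and bib, Eglp3 and Eglp4 were not called, with log2 fold changes of 1.39, 0.49 and 0.18. Eglp2, an entomoglyceroporin, had 56.7, 67.1 and 58.5 CPM in the PP, against 3.26, 3.16 and 3.49 CPM in whole glands. Its 3 PP libraries were far above those of whole glands (log2 fold change 4.20, SE 0.22, adjusted p 9.66e-07). The aquaporin gene Drip had 64.96, 149 and 71.5 CPM in the PP, against 34.8, 11.6 and 16.6 CPM in whole glands (log2 fold change 2.17, adjusted p 0.00203), and its paralog Prip rose by 1.12 and was just under the limit without PP replicate 3 (0.98). Other genes outside this family also rose by a large fold. wbl, which encodes windbeutel, a chaperone of the sulfotransferase pip, had 43.99, 54.5 and 63.8 CPM in the PP, against 1.56, 3.66 and 3.55 CPM in whole glands (log2 fold change 4.24, SE 0.29, adjusted p 2.56e-06). thw had 9.13, 15.9 and 10.6 CPM in the PP, against 0.293, 0.140 and 0.156 CPM in whole glands (log2 fold change 5.84, adjusted p 1.03e-05). orb, an RNA-binding protein known from the oocyte, had 12.97, 9.64 and 19.8 CPM in the PP, against 0.644, 1.48 and 1.15 CPM in whole glands (log2 fold change 3.71, adjusted p 5.31e-05).

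The genes that marked the remaining gland included CG6282, Dscam4, Shab and Dr. CG6282 had 6, 5 and 1 reads in the PP, against 311, 368 and 343 reads in whole glands. On the log2 scale the fold change was -6.68 (SE 0.49, adjusted p 4.10e-06). Dscam4, a cell adhesion molecule of the immunoglobulin family, had 0.329, 0.331 and 0.475 CPM in the PP, against 12.2, 16.03 and 14.4 CPM in whole glands (log2 fold change -5.25, adjusted p 1.31e-06). Shab, a voltage-gated potassium channel, had 1.56, 0.940 and 1.29 CPM in the PP, against 22.6, 16.1 and 19.01 CPM in whole glands (log2 fold change -3.96, adjusted p 3.48e-06). In w1118 glands Dscam4 averaged 39.8 ± 15.3 CPM, whereas Shab averaged 0.0982 ± 0.0314 CPM.

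Transcription factor genes were part of this group. Dr, a homeobox gene of the msh family known for dorsoventral patterning of the neuroectoderm, had 20.96, 12.5 and 12.4 CPM in the PP, against 124, 145 and 139 CPM in whole glands. The whole gland libraries were all above 100 CPM and the PP libraries all below 22 CPM (log2 fold change -3.16, SE 0.18, adjusted p 1.17e-06), and w1118 glands averaged 75.6 ± 2.73 CPM. svp, an orphan nuclear receptor, had 1.77, 1.497 and 2.15 CPM in the PP, against 10.8, 8.77 and 6.07 CPM in whole glands (log2 fold change -2.26, adjusted p 0.000487). The homeobox gene Antp was low in both groups, with 0.180, 0.265 and 0.196 CPM in the PP, against 1.56, 1.15 and 0.778 CPM in whole glands (log2 fold change -2.40, adjusted p 0.0018). CadN, a classical cadherin, had 6.23, 3.56 and 5.37 CPM in the PP, against 25.4, 19.6 and 15.2 CPM in whole glands (log2 fold change -2.01, adjusted p 0.000451). Against whole RasV12 glands CadN was not called, as given below. GILT3, a gene of the lysosomal thiol reductase family, had 11.8, 9.75 and 7.52 CPM in the PP, against 75.8, 65.4 and 68.2 CPM in whole glands (log2 fold change -2.85, adjusted p 3.14e-06). Groups were separate for each of these genes, as they were for 51.6% of all genes tested. For genes named by the size of their fold change the rule of choice requires this. Obp44a, an odorant-binding protein gene, had 1.68, 0.940 and 0.699 CPM in the PP, against 35.8, 5.20 and 6.07 CPM in whole glands, with whole gland replicate 1 far above the others, and its log2 fold change of -3.86 became -2.37 without it.

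Many metabolic genes fell in the PP. Of 19 tested genes of lipid synthesis and storage, 9 fell (47.4%, against 6.24% of all genes) and none rose, with a median log2 fold change of -1.09. FASN1, the main fatty acid synthase, had 990.5, 552 and 617 CPM in the PP, against 3677, 2902 and 2953 CPM in whole glands (log2 fold change -2.14, SE 0.24, adjusted p 6.33e-05). ACC, which makes its substrate malonyl-CoA, had 174, 123 and 114 CPM in the PP, against 314, 305 and 285 CPM in whole glands (log2 fold change -1.14, adjusted p 0.000407). The phosphatidate phosphatase gene Lpin fell by 1.77 and the lipid droplet genes Lsd-1 and Lsd-2 by 2.00 and 1.44 on the log2 scale. No library of the PP overlapped with the whole gland for any of these 5 genes. FASN2 had 0, 1 and 1 reads in the PP, against 21, 8 and 13 reads in whole glands.

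In glycolysis and sugar metabolism 7 of 22 tested genes fell (31.8%, against 6.24% of all genes) and Treh alone rose. Ldh, which regenerates NAD+ during aerobic glycolysis, had 25.5, 22.5 and 18.3 CPM in the PP, against 66.9, 128 and 98.8 CPM in whole glands (log2 fold change -2.14, SE 0.26, adjusted p 0.00012). Gapdh2 had 488, 480.1 and 403 CPM in the PP, against 1084, 1032 and 1022 CPM in whole glands (log2 fold change -1.19, adjusted p 1.84e-05), and Tps1, which makes the blood sugar trehalose, fell by 2.03 on the log2 scale (adjusted p 0.000295). Treh, which cleaves trehalose to glucose, had 701, 1148 and 996 CPM in the PP, against 183, 196 and 203 CPM in whole glands. It was higher in every PP library (log2 fold change 2.29, SE 0.16, adjusted p 2.82e-06). Glyp and Pglym78 were near the limit, with log2 fold changes of -1.02 and -1.07 that lay under it in some fits without 1 library.

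Basement membrane genes were split between 5 that fell (31.3%, against 6.24% of all genes) and 3 that rose (18.8%, against 8.21%) of 16 tested. The collagen IV chains vkg and Col4a1 lie head to head on arm 2L. Col4a1 had 90.6, 74.8 and 71.6 CPM in the PP, against 326, 345 and 277 CPM in whole glands (log2 fold change -2.001, adjusted p 0.00037), and vkg fell by 2.03 on the log2 scale (adjusted p 0.000317). Ndg, Plod and SPARC, which encode nidogen, a collagen-modifying enzyme and a collagen-binding protein, fell by 1.93, 1.27 and 1.16. mfas, an adhesion protein of the extracellular matrix, had 59.1, 83.5 and 73.4 CPM in the PP, against 32.3, 23.5 and 29.2 CPM in whole glands (log2 fold change 1.35, adjusted p 0.000523).

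Markers of fat body fell together with the metabolic and basement membrane genes. The marker list shares Hex-C with the sugar metabolism list, Desat1 with the lipid list and Idgf6 with the chitin list. Of 11 tested fat body markers 9 fell (81.8%, against 6.24% of all genes), none rose and the median log2 fold change was -1.78. Their summed level was between 8903 and 9776 CPM in the PP and between 27198 and 36010 CPM in whole glands. Lsp2, a hexamerin that fat body secretes into the hemolymph, had 1799.6, 1714 and 1534 CPM in the PP, against 6912, 6564 and 5135 CPM in whole glands (log2 fold change -1.88, adjusted p 0.000256). Lsp1alpha fell most among them, by 2.11 on the log2 scale, and 119 genes that were called lower in the PP lay below it. A further 236 of the 562 genes, the called markers included, had log2 fold changes within the range of the called fat body markers, between -2.11 and -1.40. Ldh, Lsd-1, Tps1, vkg and Col4a1 lie in or next to this range, and Dr, Dscam4, Shab and CG6282 lie below it. The place of a gene relative to this range does not tell which tissue its reads come from. AttC and the proteases psh, SPE and spirit fell too, and fat body expresses these. The part of fat body in these results was not tested.

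Among 16 tested hemocyte markers, atilla rose and Nplp2 and srp fell, with summed levels between 531 and 669 CPM in the PP and between 469 and 624 CPM in whole glands. atilla, a marker of lamellocytes, had 64.1, 76.2 and 74.8 CPM in the PP, against 18.2, 20.8 and 19.5 CPM in whole glands (log2 fold change 1.88, adjusted p 2.23e-06). Of 12 tested muscle markers TpnC73F and sls fell, and of 7 markers of neurons and glia brp and Syt1 fell. The secretory cell markers of the gland itself remained abundant in the PP, with a summed level between 33589 and 40107 CPM, against 68608 to 80772 CPM in whole glands, and Sgs genes were among the 10 most abundant mRNAs by TPM in both groups. Several programs showed no called gene in either direction, namely autophagy (23 tested genes), septate junctions (22), actin and myosin (30), the proteasome (36), aminoacyl-tRNA synthetases (32) and heat shock proteins (22). Smaller shifts were present. Without the fold limit, 15 proteasome and 10 actin and myosin genes passed as lower (17.7% of all genes did), and 9 septate junction genes as higher (20.0%). In the other direction 0, 2 and 1 passed.

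In the other lists, to be read against 8.21% higher and 6.24% lower over all genes, calls went in both directions or were few. The list of Rab GTPases and their regulators had 3 genes higher, all Rab GTPases, and 1 lower, the exchange factor gene Rab3-GEF, of 28 tested, integrin adhesion 2 and 1 of 20, the vacuolar ATPase 1 and 3 of 22 (4.55% and 13.6%), serpins and serine protease cascades 2 and 4 of 18 (11.1% and 22.2%), insulin and TOR signalling 1 and 1 of 21, and oxidative stress and detoxification enzymes 4 and 7 of 50 (8% and 14.0%). In the detoxification list the glutathione S-transferase gene GstE6 had 24.8, 20.8 and 22.1 CPM in the PP, against 4.72, 6.17 and 7.00 CPM in whole glands (log2 fold change 1.92, adjusted p 6.67e-05). In the insulin and TOR list scyl, a REDD1-like inhibitor of TOR, had 948, 789.7 and 902 CPM in the PP, against 2152, 2145 and 2237 CPM in whole glands (log2 fold change -1.31, adjusted p 0.00012), with no overlap. The Hippo pathway had 1 gene higher of 19 (Dlish), epithelial polarity 1 of 20 (Cad99C) and mitochondrial ribosomal proteins 1 of 73 (mRpL23), and none of these lists had a gene that fell.

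**Figure D5:**
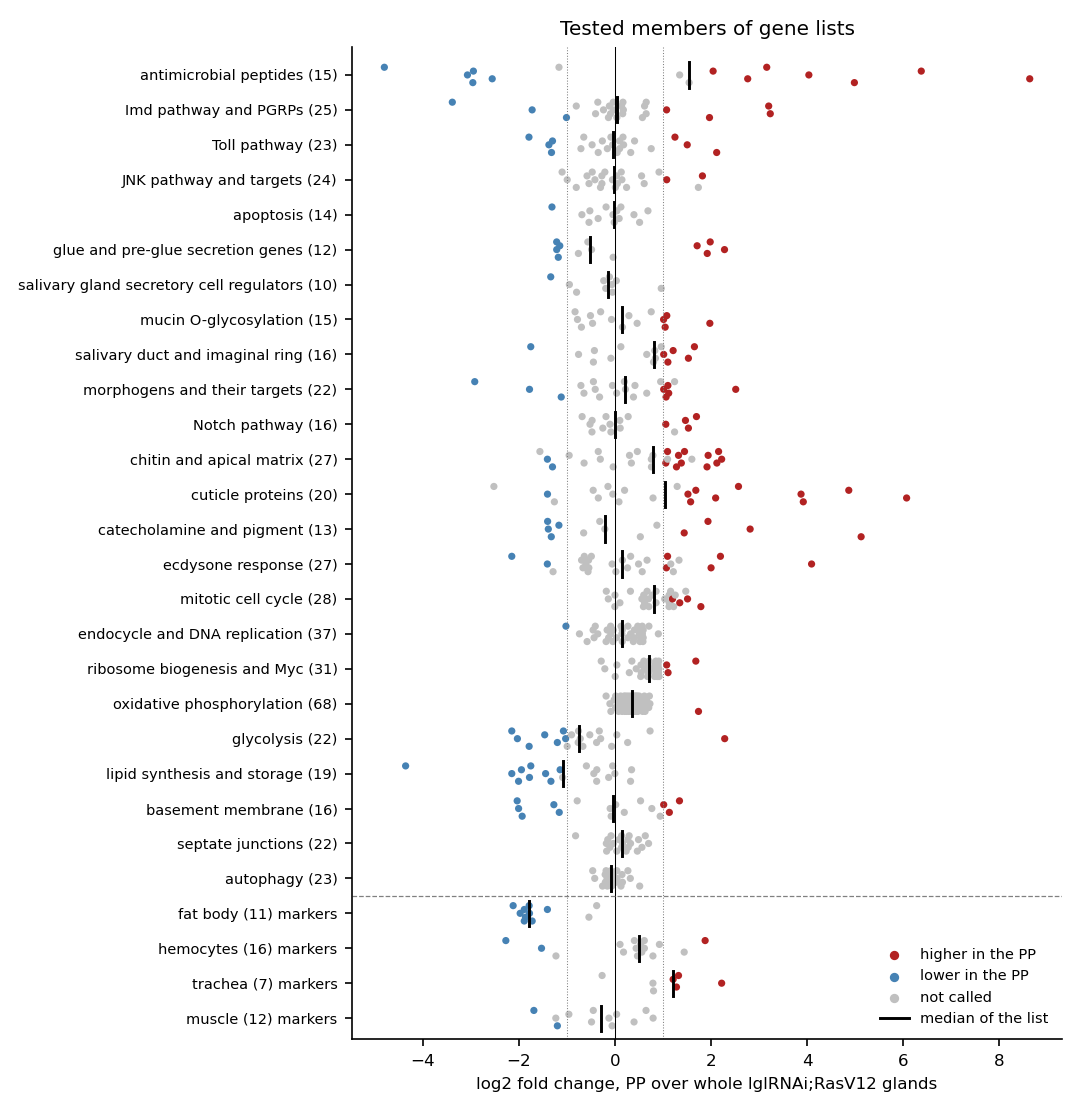
Log2 fold change of the PP over whole lglRNAi;RasV12 glands for the tested members of 24 gene lists and, under the dashed line, of 4 lists of cell type markers, with the number of tested members in brackets. Red points rose, blue points fell and grey points were not called, black bars are medians, and dotted lines mark log2 fold changes of -1 and 1. AMP genes spread from -4.79 to 8.63, lipid genes and fat body markers lie mostly below 0, and the chitin, duct and mitotic lists have medians near 0.8.

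The same PP libraries set against whole RasV12 glands gave 784 genes higher (8.70%) and 490 lower (5.44%), and whole lglRNAi;RasV12 glands against RasV12 glands gave 182 higher (2.02%) and 117 lower (1.30%). These comparisons share libraries with the main one and are given only side by side. AttD had log2 fold changes of 6.38 against whole lglRNAi;RasV12 glands and 5.91 against whole RasV12 glands, e had 5.13 and 6.18, ng1 had 2.28 and 2.24, Treh had 2.29 and 3.09, and Dr had -3.16 and -2.57. AttA was not lower against RasV12 glands, with log2 fold changes of -2.94 and 1.64 (adjusted p 0.288 for the second). bnl, CadN and brk, which were lower in the PP than in whole lglRNAi;RasV12 glands, had values of -0.44, -0.23 and -0.81 against RasV12 glands, none of them called.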

How the data were processed

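RNA of dissected salivary glands was poly(A)-selected and sequenced as paired-end reads. The authors pseudoaligned reads with kallisto 0.44.0 to the transcripts of dmel release r6.19 and deposited, for each library and transcript, estimated counts (expected counts, not normalized), TPM and the effective length. The authors scaled the deposited TPM to 1000000 per library. The deposited effective length is in bases and was used only as a check. Tools named by the submitters include sleuth 0.30.0, whose results were not used here.

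Of 30503 transcripts, 30279 were matched by identifier to genes of the Ensembl annotation of dm6, and the 224 others took 0.197% to 0.359% of each library's counts. The counts of a gene's transcripts were added up (13825 genes, 12786 with any count), rounded and fitted with R 4.3.3 and edgeR 4.0.16 in all 12 libraries, with TMM normalization, edgeR's filter at a minimum count of 10 and the quasi-likelihood test with Benjamini-Hochberg adjustment over 9012 genes within each comparison. SEs were computed from the test statistic. CPM are TMM-normalized. The script was tested on simulated counts. An exact permutation test of 3 against 3 libraries cannot give a p below 0.1, and none is given. Whether the 3 replicates come from separate crosses is not stated beyond the term biological replicates, so that p-values measure the spread between these libraries. Intervals for counting error were not used, and PCR reads that carry no molecular identifier cannot be taken as independent molecules.

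The comparison and the 44 gene lists and 7 marker lists were chosen with earlier results of these data known. A gene can be in several lists, as dally, wg and Ser are, and is then counted in each. Named genes are the 12 called genes with the largest fold change in each direction, if libraries do not overlap and the higher group averages 5 CPM or more, the 5 with the largest difference in mean CPM, up to 4 called members per list and direction, and Ras85D, l(2)gl, Drs and dl. Not every gene this rule selects is described. Others were named after their values were seen. Alternatives were the 6 libraries alone, library size, DESeq2 1.42.0, no filter, limma 3.58.1 on log2 TPM with 1 or 0.1 added, the replicate number or the library number in the model, and each library left out. No sequence is shown.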

Additional observations from a re-analysis of the deposited data

How the results depend on the processing

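With all libraries, the PP had 740 genes called higher and 562 called lower. The counts were 706 and 510 with the 6 libraries alone, 792 and 508 with library size, 728 and 582 with DESeq2, 782 and 539 without the filter, 297 and 365 in limma-trend fits on log2(TPM + 1) and 511 and 639 on log2(TPM + 0.1). The share of calls that were higher was then 44.9% and 44.4%, against 56.8%. The replicate number of the sample titles as a block gave 724 and 536. Residuals of same-numbered libraries correlated at -0.21, -0.09 and -0.12 across genes. They are taken around the mean of 3 libraries per group, which ties the values to each other. They thus cannot decide whether the numbers pair the libraries. Leaving out 1 library gave 642 to 773 genes higher and 435 to 522 lower, and leaving out replicate 1 of both groups, chosen after seeing the data, gave 782 and 413. With the library number as a factor 80 and 18 remained over the limits, and the log2 fold changes turned to -0.66 for E(spl)m3-HLH, -1.43 for Lcp2, -1.04 for Lcp65Ab1, -0.54 for Rab23 and -2.74 for Spn43Aa, with adjusted p over 0.05. That fit has few libraries to tell the number from the tissue, and the cause was not tested. Of 223 called genes followed singly, 115 were called in every alternative other than the library number. At low counts depth limits the fold, as for Def in whole glands and FASN2 in the PP.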

Other observations

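Since a whole gland includes its own PP, a gene that is n-fold higher in the PP than in whole glands limits the share of the gland's mRNA that the PP can contribute to 100/n percent, provided that the dissected PP and the PP inside the whole glands are alike. From the ratio of mean CPM this limit was 20.5% for ng1, 24.2% for Drs, 20.5% for Treh, 5.4% for wbl, 2.85% for e and 1.19% for AttD. With single libraries left out, a step added after seeing the data, the limit lay between 0.733% and 2.38% for AttD and between 2.11% and 4.13% for e, the highest value of both being that without PP replicate 2. The limits of AttD and e thus overlapped. Both lay below those of ng1, Drs, Treh and wbl, whose lowest value was 4.72% for wbl. These genes were picked, and others described above had limits in the same range, such as 1.65% for thw, 2.69% for CG32071 and 3.00% for CecA1. The limit of Def was lower, at 0.215%, and rests on few reads in whole glands. The share of the PP in the mRNA of the gland was not measured, and the condition that the PPs are alike was not tested.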
